A study of Mus musculus with 18 samples.

Results

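The probe sets described here measure the proteasome and the enzymes that hand ubiquitin to its substrates. They were all probe sets with a single gene symbol in the platform annotation that began with Psma, Psmb, Psmc, Psmd, Psme or Ube2, without Psmb8 and Psmb9, and they numbered 80 for 61 genes, of 12422 probe sets in all. By prefix these were 7 probe sets of Psma genes, 13 of Psmb, 10 of Psmc, 16 of Psmd, 5 of Psme and 29 of Ube2 genes. The values are array intensities from extraocular muscle (which turns the eye in its socket), heart and leg muscle of dko and mdx mice at 8 weeks of age, with 3 arrays in each of the 6 groups. The term dko commonly means a double knockout without dystrophin and without utrophin, its relative, but is not written out in the labels. The mdx mice have no dystrophin, and the labels call them control. If dko has its common meaning, loss of dystrophin is shared by all 6 groups. No wild-type muscle is among the samples. Whether the replicates were different animals is not stated, so the spread behind each p-value is that of these samples alone and may be technical.

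The proteasome is the barrel-shaped protease that degrades proteins tagged with ubiquitin. Its core is a stack of rings made of Psma (alpha) and Psmb (beta) subunits, with the catalytic sites on some of the beta subunits. A regulatory cap on the core has a base of Psmc ATPases, which unfold the substrate, and of Psmd subunits, of which others form the lid that removes ubiquitin. The Psme genes encode alternative activators of the core. The Ube2 genes encode ubiquitin-conjugating (E2) enzymes, which take ubiquitin or a ubiquitin-like protein from an activating (E1) enzyme and, with a ligase (E3), pass it to the substrate. In skeletal muscle this system is best known for the breakdown of contractile proteins during wasting. Interferon exchanges catalytic beta subunits for induced ones, among them Psmb10, and raises the Psme1 activator and Ube2l6, the main conjugating enzyme for the ubiquitin-like protein Isg15. The prefixes also took in genes whose products are not subunits of the proteasome, among them Psmc3ip and Psme3ip1, partners of other proteins. Not every Psmd gene encodes a subunit of the finished cap, so counts and medians by prefix are those of the prefix.

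Of the 80 member probe sets, 70 for 57 genes were bright enough to test, out of 8888 probe sets tested on the arrays. The 10 dim ones measured Psmb1, Psmb4, Psmc3ip, Psmc4, Psmc5, Psmd2, Psme1, Ube2o, Ube2v2 and Ube2w, and 6 of these genes had another, tested probe set. The arrays had about the same trimmed mean, from 1500.69 to 1501.15. The 6 arrays numbered 3 stood apart, with medians of 525.6 to 573.75 against 612.6 to 671.8 for the others, and same-numbered arrays of a tissue shared their deviations from the group means (correlation across probe sets 0.404 to 0.751, 9 pairs). Fast-muscle markers set heart apart from the other tissues. The summed level of 12 such probe sets was 17864 to 31998 in heart arrays of both genotypes. It was 108304 or more in every leg and extraocular array. Extraocular and head muscle markers (3 probe sets) summed to 18147.7 to 24721.5 in dko and 13751.5 to 26982.5 in mdx extraocular muscle. In leg they summed to 11454.3 to 17587.9 in dko and 3382.3 to 5350.4 in mdx. These 2 tissues thus overlapped across genotypes, though not within a genotype. The 2 probe sets of lacrimal and Harderian gland genes overlapped in all 6 groups. Utrn (92507_at), the gene whose loss dko usually denotes, had a lower level in dko than in mdx in 9 of 9 pairs of the same tissue and number, with a mean log2 difference of -0.82 (p = 0.00025, two-sided exact permutation of genotypes in each tissue). Its other probe set, 92508_s_at, was lower in dko in 8 of 9 pairs (-0.70, p = 0.00175 by the same two-sided exact permutation), with 645.7, 430.6 and 233 units in dko leg against 437.8, 624.2 and 738.2 in mdx leg, where the groups overlapped.

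By the number of calls, the largest tissue contrast among the members was between heart and leg muscle, as it was over all probe sets. The interferon-linked genes Psme1 and Psmb10 were called higher in heart in both genotypes and Ube2l6 in mdx. The core subunit Psma3 and the lid subunits Psmd6 and Psmd8 were called lower in both genotypes, and some base subunits in mdx. Differences are log2 differences of intensity with an offset of 166.7 added, and a probe set was called at an adjusted p under 0.05 in limma, adjusted over all 8888 probe sets. In mdx mice, 3 of the 70 member probe sets were higher in heart than in leg and 10 were lower. Over all probe sets tested, 5.04% were called higher and 4.93% lower in that comparison (9.97% together), so that the share of members called lower (14.3%) stood above the background and the share called higher (4.29%) did not. With the array number as a block the counts were 4 and 21, against 11.7% and 11.1% of all probe sets. In dko mice, 2 members were higher and 8 lower in heart, against 5.16% and 5.54% of all probe sets (10.7% together), and with the block 7 and 22, against 12% and 11.5%. In bulk tissue a smaller share of cells that hold a transcript and less of it in each cell cannot be told apart.

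The median of the members lay below that of the array in this contrast. The median heart minus leg difference of the members was -0.19 in dko and -0.29 in mdx, where the median over all probe sets tested was 0.02 and -0.0017. There were 46 of 70 members below 0 in dko and 52 of 70 in mdx, while 51.6% and 49.8% of all probe sets were above 0. The dko and mdx tissue contrasts share no array. Of the 13 members called in mdx, all 13 had the same sign in dko, and 6 genes (Psma3, Psmb10, Psmd6, Psmd8, Psme1 and Ube2v2) were called in both, which is 60% of the dko list and 46.2% of the mdx list. Over all probe sets the shared calls made up 67.4% of the dko list and 72.3% of the mdx list. The mdx count was 6 without leg replicate 2 and 8 without heart replicate 1, without heart replicate 3 or without the 6 arrays numbered 3. The dko count was 4 without heart replicate 3 or leg replicate 2, 5 without leg replicate 3 and 6 without heart replicate 1.

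**Figure D1:**
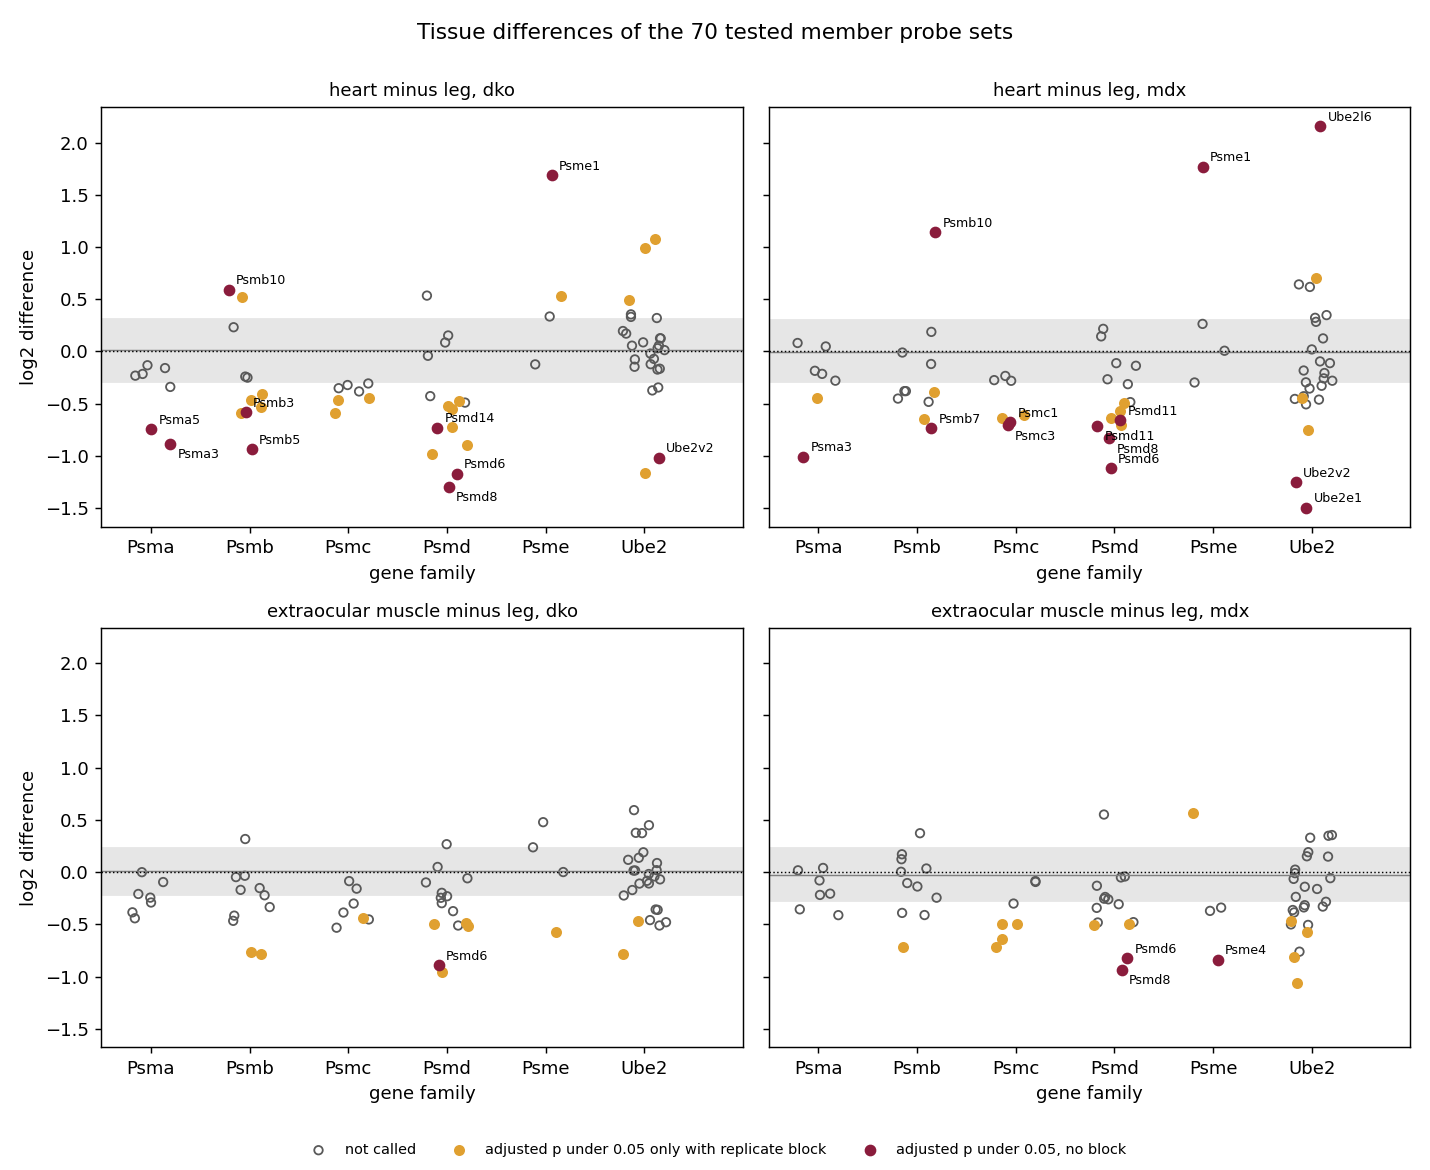
Log2 differences of the 70 tested member probe sets by gene family (horizontal axis), for heart minus leg (upper panels) and extraocular muscle minus leg (lower panels) in dko (left) and mdx (right). Filled dark points had an adjusted p under 0.05 without the replicate block and carry their gene names, orange points only with it. The grey band spans the middle quartiles of all 8888 probe sets and the grey line their median. All 7 tested Psmc probe sets lie below 0 in each panel, and Psme1 and Psmb10 stand above the band in both heart panels.

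Psme1 (101510_at) encodes the alpha subunit of the interferon-induced activator of the core. Its intensity was 5069, 4953 and 8881 in mdx heart, against 1366, 1080 and 3040 in mdx leg. In dko it was 4874, 4366 and 9098 in heart, against 1212, 1444 and 2687 in leg. Every heart array was above every leg array of its genotype, and in each group the array numbered 3 was the brightest. The log2 difference was 1.69 ± 0.42 (SE, n = 3 a group, adjusted p = 0.0135) in dko and 1.77 ± 0.42 (adjusted p = 0.011) in mdx, and with the block the adjusted p was 1.81e-06 in dko and 1.09e-06 in mdx. The call without the block was lost in mdx when heart replicate 3 (adjusted p = 0.0606) or leg replicate 2 (0.0648) was left out, and in dko without heart replicate 3 (0.0726), leg replicate 1 (0.0644) or leg replicate 2 (0.0584). The dko minus mdx difference of the tissue differences was -0.08 ± 0.59 (adjusted p = 1).

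Psmb10 (101486_at) encodes the induced subunit that takes the place of Psmb7 in the core. It had 4970, 3858 and 4788 units in mdx heart, against 2035, 2131 and 1729 units in mdx leg. In dko it had 3810, 3033 and 3562 units in heart, against 2324, 2184 and 2213 units in leg. The groups did not overlap in either genotype. The heart minus leg difference was 0.59 ± 0.17 (SE) in dko (adjusted p = 0.0388) and 1.14 ± 0.17 in mdx (adjusted p = 0.000302, called without any single array). In dko the call was lost in 5 of 6 fits that left out an array, all but that without heart replicate 2, with an adjusted p up to 0.136 without heart replicate 1. The dko minus mdx difference of these tissue differences was -0.55 ± 0.25 (adjusted p = 1, and 0.368 with the block), so a smaller heart excess in dko was not shown. Psmb7 (94263_f_at), the subunit that Psmb10 replaces, was lower in mdx heart, at 7840, 7903 and 7031 units against 11991, 12219 and 14032 in mdx leg (-0.73 ± 0.16, adjusted p = 0.00606, called without any single array, and 0.0641 without the arrays numbered 3). A link between the Psmb7 and Psmb10 values was not tested. In dko the Psmb7 difference was -0.47 (adjusted p = 0.0766, and 0.0198 with the block).

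Ube2l6 (98597_at) was dim in skeletal muscle. It had 963, 1132 and 1155 units in mdx heart, against 174, 115 and 61.2 units in mdx leg, and the log2 difference was 2.16 ± 0.42 (adjusted p = 0.00238, called without any single array). In dko its values were spread widely, with 885, 1254 and 319 units in heart and 189, 578 and 126 units in leg. The dko groups overlapped, and the difference of 1.08 was not called (adjusted p = 0.127, and 0.0475 with the block). The dko minus mdx difference of the tissue differences was -1.08 ± 0.59 (adjusted p = 1, with the block 0.505).

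The promoters of these 3 genes are shown because their products are known to be induced together by interferon. Each line gives 250 bases before and 50 after the annotated start, from RefSeq on GRCm38.p6, written 5′ to 3′ on the gene's strand: Psme1 at chr14:55578244-55578543 (plus strand), Psmb10 at chr8:105938343-105938642 (minus strand) and Ube2l6 at chr2:84798578-84798877 (plus strand). Capitals mark the core of the interferon-stimulated response element (GAAANNGAAA on either strand, N being any base).
Psme1: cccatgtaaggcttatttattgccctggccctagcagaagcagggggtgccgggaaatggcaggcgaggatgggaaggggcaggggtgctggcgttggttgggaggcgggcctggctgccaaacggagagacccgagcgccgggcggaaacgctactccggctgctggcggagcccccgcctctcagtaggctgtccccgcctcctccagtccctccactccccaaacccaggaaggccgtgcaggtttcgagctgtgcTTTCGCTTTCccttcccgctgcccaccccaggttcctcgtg
Psmb10: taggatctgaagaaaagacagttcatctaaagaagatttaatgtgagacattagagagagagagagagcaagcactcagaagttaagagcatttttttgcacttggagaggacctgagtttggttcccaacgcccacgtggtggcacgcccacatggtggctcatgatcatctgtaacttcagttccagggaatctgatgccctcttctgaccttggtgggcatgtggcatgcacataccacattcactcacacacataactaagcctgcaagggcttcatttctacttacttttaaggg
Ube2l6: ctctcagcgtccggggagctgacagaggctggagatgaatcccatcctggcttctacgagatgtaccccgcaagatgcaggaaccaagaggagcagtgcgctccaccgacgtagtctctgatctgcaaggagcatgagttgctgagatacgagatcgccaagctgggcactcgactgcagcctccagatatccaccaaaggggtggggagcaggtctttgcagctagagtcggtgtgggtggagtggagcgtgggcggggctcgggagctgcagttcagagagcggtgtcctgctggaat
The Psme1 window held 1 match, TTTCGCTTTC, which begins 9 bases after the start. The Psmb10 and Ube2l6 windows held none of these letters, nor those of the gamma-activated site (TTCNNNGAA).

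Genes of the same induced group that are not members were counted beside them. The list had 23 probe sets for 19 genes, among them Psmb8 and Psmb9 (the other induced catalytic subunits), the peptide transporters Tap1 and Tap2, B2m and Isg15, and all 23 were tested. In dko, 17 of 23 were above 0 in heart minus leg with a median of 0.33, and in mdx 22 of 23 with a median of 0.62. Called higher were 2 in dko (3 with the block) and 3 in mdx (13 with the block), and none was called lower in either. Over all probe sets, 5.16% were called higher in dko (12% with the block) and 5.04% in mdx (11.7% with the block). The dko count with the block was near that share. Isg20, an interferon-induced nuclease, averaged 1588 in mdx heart and 152 in mdx leg (2.50, adjusted p = 0.000109), and 1043 in dko heart and 224 in dko leg (1.72, adjusted p = 0.00298). Iigp1 (96764_at), an induced GTPase, averaged 3253 in mdx heart and 986 in mdx leg (1.70, adjusted p = 0.00319), and in dko its difference was 1.12 (adjusted p = 0.0441). Psmb8 had a difference of -0.23 in dko (adjusted p = 0.782) and 0.73 in mdx (0.149, with the block 0.00814), and Psmb9 of 0.36 in dko (0.847) and 1.07 in mdx (0.332, with the block 0.00653). Isg15 itself had 0.15 in dko (adjusted p = 0.924) and 0.83 in mdx (0.217, with the block 0.00673). Uba7, the activating enzyme for Isg15, had 0.56 in dko (adjusted p = 0.152, with the block 0.0321) and 0.57 in mdx (0.146 and 0.0284). The macrophage markers, summed over 23 probe sets, were 35662 to 41298 in dko heart against 73612 to 134111 in dko leg, and 35723 to 40148 in mdx heart against 42737 to 73057 in mdx leg. T cell markers, of which 2 of 8 probe sets were bright enough to test, summed to 952 to 1843 in dko heart against 1737 to 3496 in dko leg, and to 1106 to 2516 in mdx heart against 1858 to 3247 in mdx leg. Neither list had a probe set at 0, and their part in the tissue differences was not tested.

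**Figure D2:**
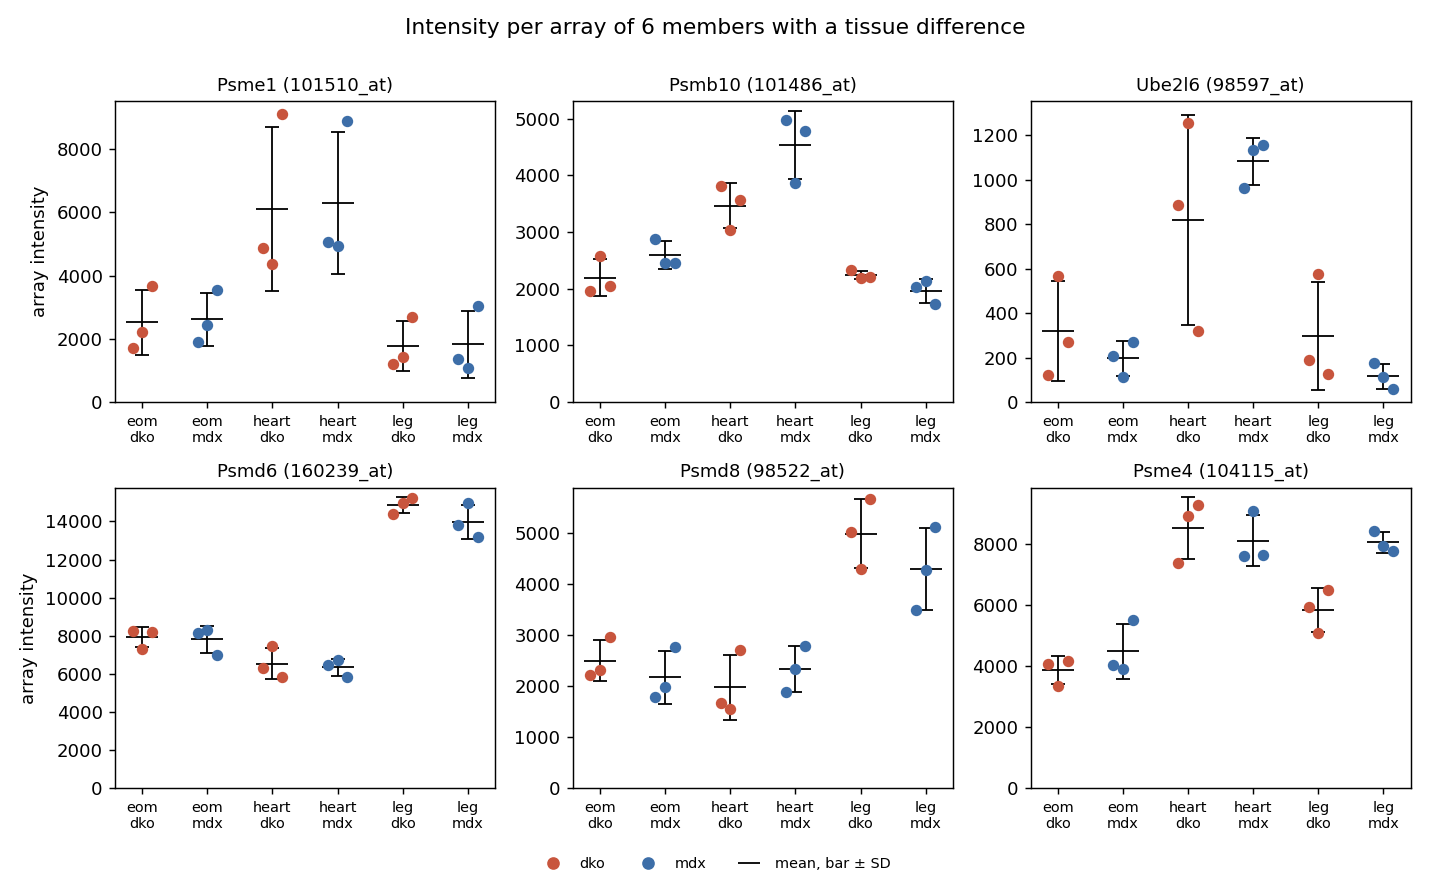
Array intensity (vertical axis, linear, from 0) of Psme1, Psmb10, Ube2l6, Psmd6, Psmd8 and Psme4 in the 6 groups. Each point is an array, in the order of the replicate numbers, dko in red and mdx in blue, and the lines give the mean and SD. Psme1 and Psmb10 are highest in heart, Psmd6 and Psmd8 are highest in leg, and Psme4 has its lowest means in extraocular muscle.

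The lid subunits Psmd6 and Psmd8 of the regulatory cap were lower in heart than in leg in both genotypes. Psmd6 (160239_at), a scaffold subunit of the lid, had 6304, 7474 and 5869 units in dko heart, against 14389, 14982 and 15228 units in dko leg. In mdx it had 6476, 6727 and 5855 units in heart, against 13788, 14963 and 13184 units in leg. The leg arrays lay well above all heart arrays, and the differences of -1.17 ± 0.16 in dko (adjusted p = 8.35e-05) and -1.12 ± 0.16 in mdx (adjusted p = 0.000135) were called without any single array. Psmd8 (98522_at), another lid subunit, averaged 1980 ± 639 in dko heart and 4986 ± 683 in dko leg (SD, n = 3 each, -1.29, adjusted p = 0.00176). In mdx it averaged 2338 ± 444 in heart and 4293 ± 809 in leg (-0.83, adjusted p = 0.0391), a call that held only without heart replicate 3 or leg replicate 1 of the 6 arrays and that reached an adjusted p of 0.158 without heart replicate 1.

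Further lid and base subunits were called lower in heart in 1 genotype, and uncalled ones ran either way, with Psmd1 at 0.15 in dko (adjusted p = 0.876) and -0.14 in mdx (0.896) and Psmd3 at -0.04 in dko (0.978) and 0.14 in mdx (0.873). Psmd11, a lid subunit that helps hold the cap to the core, was lower in mdx heart by its probe sets 160305_at (-0.71, adjusted p = 0.018) and 94796_at (-0.66, adjusted p = 0.0346). The remaining probe set, 160304_r_at, had 0.22 (adjusted p = 0.938), so the probe sets of this gene disagreed in sign. Psmd14, the lid enzyme that cuts ubiquitin from the substrate, was lower in dko heart (-0.73, adjusted p = 0.0311) and had -0.50 in mdx (0.17, with the block 0.022). Psmd4, a ubiquitin receptor of the cap, had -0.72 in dko (adjusted p = 0.331, with the block 0.00156) and -0.57 in mdx (0.484 and 0.00782). The Psmc ATPases were below 0 in heart minus leg in all 7 tested probe sets, several of which measured Psmc3, with a median of -0.38 in dko and -0.61 in mdx. Of them Psmc1 (-0.68, adjusted p = 0.0338) and Psmc3 by 93734_i_at (-0.71, adjusted p = 0.0485) were called in mdx and none in dko. The other Psmc3 probe sets, 100225_f_at and 93735_f_at, had -0.27 (adjusted p = 0.626) and -0.23 (0.684) in mdx. With the block, 3 Psmc probe sets were called in dko and 4 in mdx, where 11.5% and 11.1% of all probe sets were called lower. All 15 tested Psmd probe sets had a median of -0.52 in dko and -0.50 in mdx. Called lower were 3 of them in dko and 4 in mdx, against 5.54% and 4.93% of all probe sets. The mdx count includes Psmd11 by both 160305_at and 94796_at. These smaller mdx calls were lost on leaving out any of several arrays: Psmc3 in 5 of 6 such fits, with differences of -0.79 to -0.44 and an adjusted p of 0.232 without heart replicate 1. Psmc1 (-0.67 to -0.60) and Psmd11 94796_at (-0.65 to -0.54) were lost in 4 and Psmd11 160305_at (-0.70 to -0.64) in 3, with an adjusted p up to 0.153, and Psmd14 in dko in 4 of 6, with an adjusted p up to 0.118.

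The window of Psmd6 is shown as the member with the smallest adjusted p between heart and leg in both genotypes, and that of Psmb5, the subunit with the chymotrypsin-like site, because the antioxidant response element is a known switch of proteasome genes. Psmd6 lies at chr14:14120896-14121195 and Psmb5 at chr14:54617946-54618245, both on the minus strand of GRCm38.p6 in RefSeq. Capitals mark TATAAA in Psmd6 and the core of the antioxidant response element, TGACNNNGC, in Psmb5.
Psmd6: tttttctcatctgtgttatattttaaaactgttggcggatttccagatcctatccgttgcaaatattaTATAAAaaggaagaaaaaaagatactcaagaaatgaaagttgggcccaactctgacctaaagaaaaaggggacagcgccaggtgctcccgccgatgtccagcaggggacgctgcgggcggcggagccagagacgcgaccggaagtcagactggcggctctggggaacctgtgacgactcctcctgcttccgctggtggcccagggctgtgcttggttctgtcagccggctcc
Psmb5: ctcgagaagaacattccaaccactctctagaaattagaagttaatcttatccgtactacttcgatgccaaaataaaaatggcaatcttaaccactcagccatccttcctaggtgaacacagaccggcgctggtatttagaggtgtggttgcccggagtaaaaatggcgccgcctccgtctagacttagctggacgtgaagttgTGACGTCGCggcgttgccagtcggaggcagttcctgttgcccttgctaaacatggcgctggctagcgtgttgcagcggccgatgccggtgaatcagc
The match in Psmd6 begins 182 bases before the start and that in Psmb5 47 bases before it.

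Core subunits were among the members called lower in heart, where 5.54% of all probe sets were called lower in dko and 4.93% in mdx. Psma3 (92544_f_at), an alpha subunit, averaged 12697 ± 2401 in dko heart and 23642 ± 4945 in dko leg (-0.88, adjusted p = 0.0327), and 11476 ± 3698 in mdx heart and 22517 ± 1739 in mdx leg (-1.01, adjusted p = 0.0159). The mdx call was lost without heart replicate 1 (-0.78, adjusted p = 0.093), without leg replicate 2 (-0.95, 0.0659) and without the arrays numbered 3 (-1.05, 0.068), and the dko call in 4 of 6 fits without an array. In dko, Psma5 (-0.74, adjusted p = 0.0203), the structural beta subunit Psmb3 (-0.58, adjusted p = 0.0165) and Psmb5 by 101558_s_at (-0.94, adjusted p = 0.0264) were also lower in heart. In mdx these 3 had -0.44, -0.38 and -0.65 and were called only with the block (adjusted p = 0.0492, 0.0279 and 0.00189). The dko calls of Psma5, Psmb3 and Psmb5 were lost in 4, 3 and 3 of 6 fits, with an adjusted p up to 0.134. Psma7, an alpha subunit, had -0.13 in dko (adjusted p = 0.77) and 0.08 in mdx (0.891) and did not pass the test. The beta subunit Psmb2 (94219_at) was above 0 in heart minus leg, with 0.52 in dko (adjusted p = 0.122, with the block 0.0492) and 0.19 in mdx (0.732 and 0.513). The nuclear activator Psme3 had 0.33 in dko and 0.26 in mdx, also uncalled.

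Among the conjugating enzymes, Ube2v2 was called between heart and leg in both genotypes. Of 26 tested Ube2 probe sets, 0 were called higher and 1 lower in dko, against 5.16% and 5.54% of all probe sets. In mdx 1 was called higher and 2 lower, against 5.04% and 4.93%. The Ube2 medians were 0.04 in dko and -0.23 in mdx. Ube2v2 (160247_at) is the inactive partner with which Ube2n builds ubiquitin chains that serve signalling. It had 278, 530 and 374 units in dko heart against 1051, 932 and 874 in dko leg, and 340, 385 and 292 in mdx heart against 1099, 1332 and 745 in mdx leg. The heart and leg arrays did not overlap, with -1.02 in dko (adjusted p = 0.0251, lost in 5 of 6 fits without an array, with an adjusted p up to 0.112) and -1.25 in mdx (adjusted p = 0.00716, called without any single array). Ube2n itself averaged 5435 ± 970 in dko heart and 5527 ± 1103 in dko leg, and 5223 ± 1717 in mdx heart and 5455 ± 1049 in mdx leg. Ube2e1 (92660_f_at) had 1091, 1277 and 728 units in mdx heart against 4094, 4340 and 1731 in mdx leg (-1.50, adjusted p = 0.0134). That call was lost without heart replicate 3, leg replicate 1 or leg replicate 2 (adjusted p 0.0673 to 0.0761), and in dko the difference was -1.17 (adjusted p = 0.0522, with the block 0.000401). The widely used enzymes Ube2d2a and Ube2d3, with 2 probe sets each, had differences from -0.45 to 0.32 in the 2 genotypes, and the mitotic enzyme Ube2c had -0.08 in dko and 0.28 in mdx, none of them called without the block.

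Extraocular muscle differed from leg in fewer members than heart did, as it did over the whole array, and again mainly downward. Without the block, 1.43% of members were called in dko and 4.29% in mdx, near the shares of the array. In dko 0 members were called higher and 1 lower, against 1.43% and 0.709% of all probe sets (2.14% together). In mdx 0 were called higher and 3 lower, against 2.57% and 1.45% (4.02% together). With the block the counts were 0 and 11 in dko, against 4.04% and 3.54%, and 1 and 14 in mdx, against 6.54% and 5.91%. The member medians were -0.20 in dko and -0.26 in mdx beside 0.01 and -0.03 over all probe sets, with 53 of 70 members below 0 in dko and 54 of 70 in mdx. These contrasts use the same leg arrays as the heart contrasts. The mdx count was 1 without extraocular replicate 1 or 2 or leg replicate 1 or 2, and the dko count was 0 without the arrays numbered 3.

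Psmd6 was the member called in extraocular muscle of both genotypes. It had 8274, 7329 and 8196 units in dko extraocular muscle, against 14389, 14982 and 15228 in dko leg (-0.89 ± 0.16, adjusted p = 0.00558). In mdx it had 8130, 8329 and 7016 units against 13788, 14963 and 13184 in leg (-0.83 ± 0.16, adjusted p = 0.00682). Both calls held without any single array, and the groups were far apart. Psmd8 averaged 2498 ± 399 in dko extraocular muscle (-0.95 against leg, adjusted p = 0.0542, with the block 0.000623) and 2178 ± 519 in mdx extraocular muscle (-0.93, adjusted p = 0.0423). The mdx call of Psmd8 was kept only without extraocular replicate 3, with an adjusted p of 0.0512 to 0.163 in the other 5 fits. All 7 Psmc probe sets, several of them for Psmc3, were below 0 in both genotypes, with medians of -0.39 in dko and -0.50 in mdx. With the block only, 1 in dko and 4 in mdx were called, where 3.54% and 5.91% of all probe sets were called lower. The calls that the block added in mdx included the conjugating enzyme Ube2g1 (-1.06, adjusted p = 0.0564 without and 0.00111 with the block), Psmb5 by 101558_s_at (-0.71, 0.177 and 0.00208) and, as the one higher member, Psme1 (0.57, 0.672 and 0.027).

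Psme4 (104115_at), a large activator that binds the core as a single chain, set extraocular muscle apart from heart in both genotypes. Its intensity was 4073, 3339 and 4172 in dko extraocular muscle, against 7354, 8917 and 9255 in dko heart. In mdx it was 4041, 3891 and 5492 in extraocular muscle, against 7607, 9055 and 7640 in heart. The groups did not overlap, and the extraocular minus heart difference was -1.11 ± 0.18 in dko (adjusted p = 0.000861) and -0.84 ± 0.18 in mdx (adjusted p = 0.00844), both called without any single array. Against leg, with 5943, 5077 and 6488 units in dko and 8423, 7928 and 7768 in mdx, it had -0.57 in dko (adjusted p = 0.166, with the block 0.0346) and -0.84 in mdx (adjusted p = 0.016). That mdx call was lost without extraocular replicate 1 or 2 or leg replicate 1 or 2, with log2 differences of -0.85 to -0.75 and an adjusted p of 0.0592 to 0.0828.

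Psmb10 and Ube2l6 were among the further calls between extraocular muscle and heart. In dko 1 member was higher and 3 lower, against 4.23% and 3.43% of all probe sets (7.66% together), and with the block 4 and 6, against 9.26% and 9.3%. In mdx 0 were higher and 3 lower, against 3.76% and 3.3% (7.05% together), and with the block 4 and 5, against 8.49% and 9.17%. Psmb10 was lower in extraocular muscle by -0.62 in dko (adjusted p = 0.0362) and by -0.77 in mdx (adjusted p = 0.0109), and Ube2l6 by -1.80 in mdx (adjusted p = 0.0123). Without single arrays Psmb10 was lost in dko in 4 of 6 fits, with an adjusted p up to 0.142, and in mdx without extraocular replicate 2 (0.0504), heart replicate 1 (0.0547) or the arrays numbered 3 (0.113). Ube2l6 in mdx was lost without extraocular replicate 2 (-1.63, adjusted p = 0.0651). Psme1 had -1.21 in dko (adjusted p = 0.103, with the block 6.29e-05) and -1.20 in mdx (0.112 and 6.96e-05) and was called only with the block. Psmb1 by 160875_at, a structural beta subunit, was the one higher member, with 9657 ± 902 in dko extraocular muscle and 5284 ± 514 in dko heart (0.85, adjusted p = 0.00634). In mdx it had 0.55 (adjusted p = 0.0888, with the block 0.00948). The third lower call in dko was the dim Psmb4 probe set 98556_at (-0.997, adjusted p = 0.0272, lost in 5 of 6 fits), while the bright 98557_f_at of the same gene had 0.44 (adjusted p = 0.478), so this gene's probe sets disagreed. The mdx count was 1 without extraocular replicate 2, and the dko count was 2 without extraocular replicate 1 or 3 or heart replicate 1.

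Between genotypes no member was called. Of the 70 probe sets, 0 passed in extraocular muscle, heart or leg, or in the mean of the 3 tissues, with or without the replicate block. The background without the block was 0.0225% of all probe sets called in extraocular muscle, 0% in heart, 0.0563% in leg and 0.09% in the mean, and with the block 0.158%, 0%, 1.2% and 0.788%, so few calls were made on the whole array. At an unadjusted p under 0.05 in limma, the members held 1 in extraocular muscle, 2 in heart and 3 in leg, all lower in dko, where all 8888 probe sets held 196, 130 and 556 in either direction. The median dko minus mdx difference was -0.02 in extraocular muscle, -0.01 in heart and -0.06 in leg, beside -0.01, -0.01 and -0.04 over all probe sets. The tests of whether the genotype difference in extraocular muscle or heart departs from that in leg also called 0 members with and without the block (background 0% without it, and 0.0338% and 0.0675% with it, with 1 member in each at an unadjusted p under 0.05 without it, where all 8888 probe sets held 180 for extraocular muscle and 259 for heart).

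**Figure D3:**
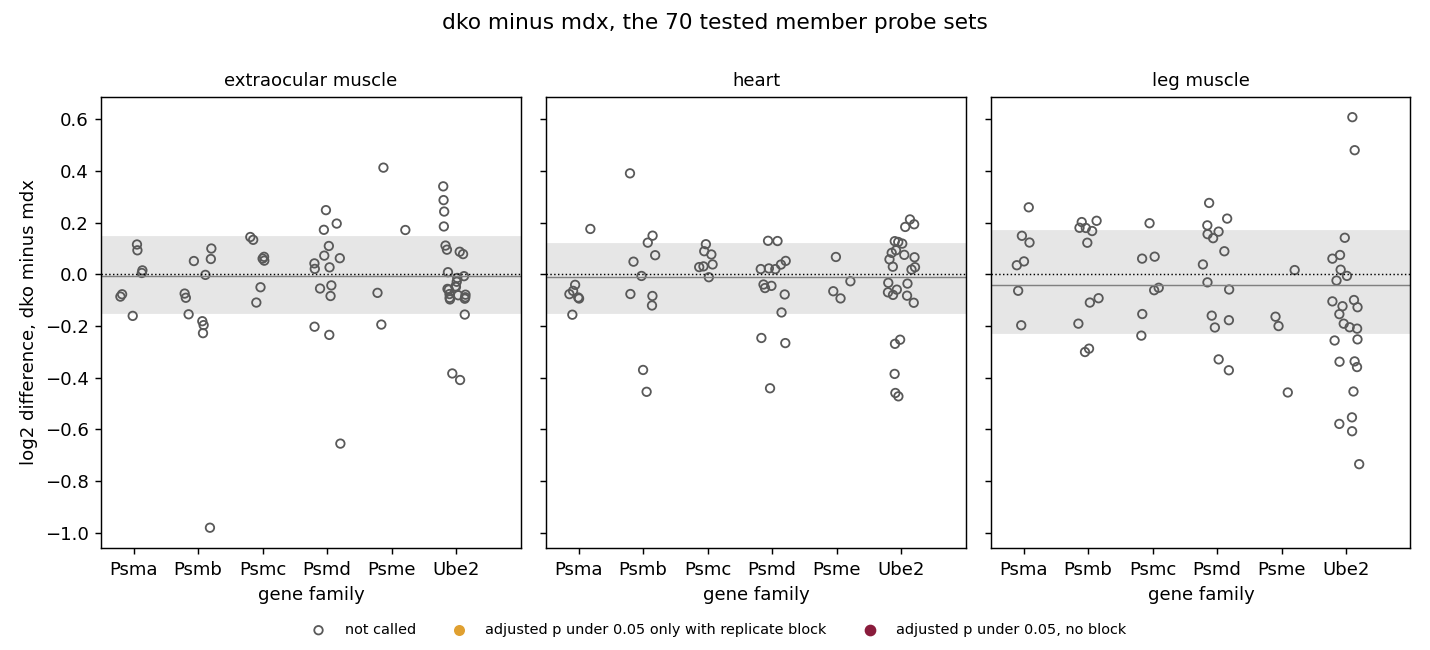
Log2 differences dko minus mdx (vertical axis) of the 70 tested member probe sets by gene family in extraocular muscle, heart and leg. The grey band spans the middle quartiles of all 8888 probe sets and the grey line their median. No point was called, and most members lie near 0, with the Ube2 probe sets in leg reaching from -0.73 to 0.61.

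In leg, the 3 lowest members in dko minus mdx were conjugating enzymes. Ube2b (93509_at), the Rad6 enzyme that marks histones and DNA repair factors, had 8314, 8962 and 7046 units in dko leg, against 12838, 13187 and 10551 in mdx leg. All dko leg arrays were below all mdx leg arrays, yet the difference of -0.58 ± 0.19 was not called (adjusted p = 0.484, with the block 0.0643). In extraocular muscle Ube2b had 9295, 10526 and 7176 units in dko against 11615, 12434 and 10945 in mdx, and in heart 8562, 9752 and 9035 in dko against 8501, 11993 and 8751 in mdx. Its mean difference over the tissues was -0.35, lower in 7 of 9 pairs (p = 0.00525 by two-sided exact permutation in each tissue, over all probe sets tested adjusted p = 0.417, and within pairs p = 0.0156, adjusted 0.257). Ube2f (160491_at), the conjugating enzyme for the ubiquitin-like Nedd8, had 692, 674 and 855 units in dko leg against 964, 1232 and 1482 in mdx leg (-0.61 ± 0.21, adjusted p = 0.52, with the block 0.0581). The dim Ube2e3 had 79.1, 400 and 283 units in dko leg against 528, 431 and 528 in mdx leg (-0.73, adjusted p = 0.872). The largest positive values in leg were those of Ube2l6 (0.61), Ube2z by 160454_at (0.48) and Psmd5 (0.28), each with an adjusted p of 1. Without leg dko replicate 2 Psmd5 turned to -0.02, and without the arrays numbered 3 Ube2z turned to -0.0057.

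In leg 20 of the 26 Ube2 probe sets were below 0 in dko minus mdx, with a median of -0.17, beside medians of -0.18 for the 4 Psme, -0.05 for the Psmc, 0.04 for the Psmd, 0.05 for the Psma and 0.12 for the Psmb probe sets and 44.7% of all probe sets above 0. No Ube2 probe set was called. In the same comparison the summed macrophage markers (23 probe sets, 14 genes) were 73612 to 134111 in dko leg against 42737 to 73057 in mdx leg. In extraocular muscle they were 62171 to 65335 in dko against 27598 to 35316 in mdx, and in heart 35662 to 41298 in dko against 35723 to 40148 in mdx. Their part in the genotype values was not tested.

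Psmb1 by 160875_at was lower in dko in all 9 pairs of the same tissue and number. It had 9176, 10698 and 9097 units in dko extraocular muscle against 11154, 11732 and 9460 in mdx, 4705, 5686 and 5462 in dko heart against 6773, 7719 and 7382 in mdx, and 6308, 8375 and 8632 in dko leg against 8112, 10515 and 10117 in mdx. The groups were apart only in heart (-0.45, adjusted p = 1). The mean difference was -0.30 (p = 0.00275 by the same two-sided exact permutation, over all probe sets adjusted p = 0.309, and within pairs p = 0.00391, the smallest that the pairs allow, adjusted 0.165). The other Psmb1 probe set, 98113_at, had a mean difference of 0.04 and was lower in 4 of 9 pairs, so the 2 probe sets of this gene did not run together.

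**Figure D4:**
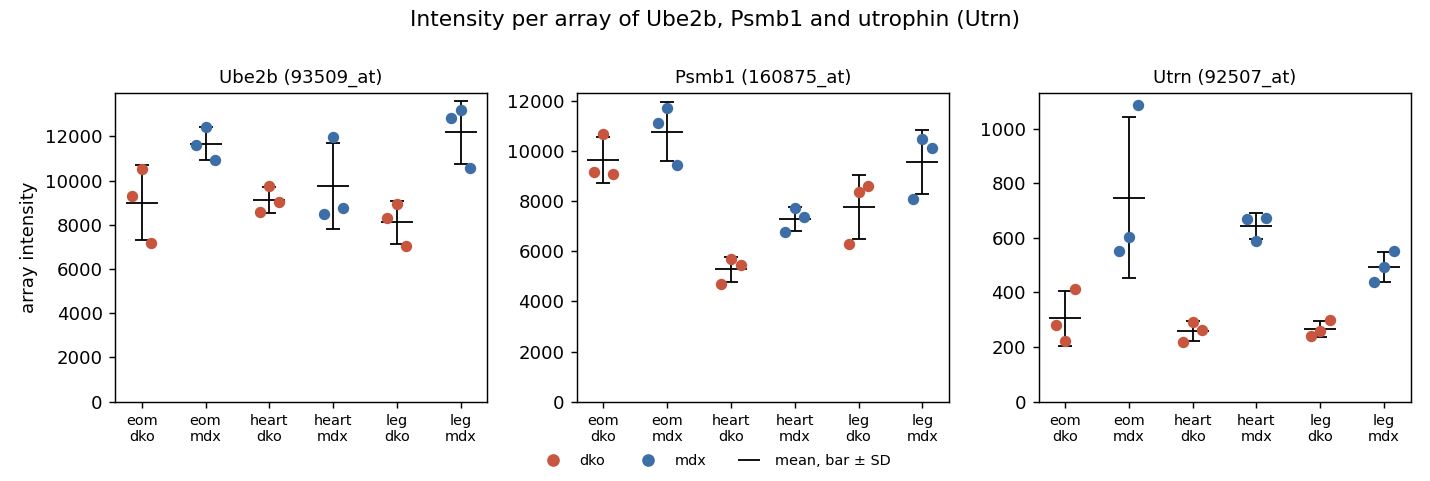
Array intensity (vertical axis, linear, from 0) of Ube2b, Psmb1 (160875_at) and Utrn in the 6 groups, points in the order of the replicate numbers with the mean and SD. Utrn is lower in every dko array than in the mdx arrays of its tissue, Ube2b is apart between genotypes in leg and extraocular muscle, and Psmb1 is apart in heart.

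In the other tissues the extremes among members were few and uncalled. In extraocular muscle the lowest were Psmb4 by 98556_at (-0.98, adjusted p = 0.755, with the block 0.122), with 178, 188 and 134 units in dko against 698, 547 and 290 in mdx, then Psmd11 by 160304_r_at (-0.66) and Ube2a (-0.41), and the highest Psme3, a nuclear activator (0.41), Ube2l6 (0.34) and Ube2k by 92547_at (0.29). Ube2l6 there turned to -0.0065 without dko replicate 2. In heart the lowest were Ube2l6 (-0.47), Ube2c (-0.46) and Psmb1, and the highest Psmb5 by 160559_at (0.39), Ube2a (0.21) and Ube2z by 160454_at (0.19), each with an adjusted p of 1. Ube2l6 in heart was 0.01 without the arrays numbered 3, and Psmb5 turned to -0.06 without mdx replicate 3. In the mean of the tissues the lowest were Psmd11 by 160304_r_at (-0.36), Ube2b (-0.35) and Psmb4 by 98556_at (-0.31), and the highest Ube2z by 160454_at (0.22), Ube2l6 (0.16) and Psmc3 by 100225_f_at (0.14).

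Genotype called none of the other genes of the ubiquitin system that were counted, with or without the block. The list of activating enzymes, ligases, deubiquitinases, shuttling and assembly factors and regulators had 77 probe sets for 55 genes, of which 70 were tested. Its muscle-enriched ligases had 1 probe set, for Fbxo21, and its ubiquitin genes 0, so the ligases Trim63 and Fbxo32 were not measured. In heart minus leg 2 of the 70 were higher and 1 lower in dko (5 and 6 with the block), and 2 higher and 4 lower in mdx (5 and 10 with the block), with medians of -0.10 and -0.13. Over all probe sets tested, 5.16% were called higher and 5.54% lower in dko (12% and 11.5% with the block). In mdx 5.04% were called higher and 4.93% lower (11.7% and 11.1% with the block). The dko counts of the list thus lay below the shares of the whole array. Higher in heart in both genotypes were Fbxo21, an F-box subunit of a ligase (0.92 in dko, adjusted p = 0.0117, and 1.20 in mdx, adjusted p = 0.00168), and Foxo3, the transcription factor that drives atrophy ligases (0.81 in dko, adjusted p = 0.00585, and 0.92 in mdx, adjusted p = 0.0024). The deubiquitinase Usp15 was lower in heart by 95416_at in dko (-0.86, adjusted p = 0.0312) and mdx (-0.93, adjusted p = 0.0204), while its other probe set, 161870_at, had 0.26 in dko and -0.78 in mdx and was not called. In mdx the cullin scaffold Cul3 (-0.83, adjusted p = 0.00256) and the deubiquitinase Usp9x by both probe sets (-0.74 and -0.72, adjusted p = 0.0435 and 0.0451) were lower too. Extraocular minus leg called Fbxo21 higher in mdx (0.83, adjusted p = 0.0471) and 0 in dko, where 2.57% and 1.43% of all probe sets were called higher. Genes of dividing cells, kept beside Ube2c, Ube2s and Ube2t, had 22 tested probe sets. In heart minus leg 4 were lower in dko and 2 in mdx, against 5.54% and 4.93% of all probe sets. With the block 7 and 3 were lower, against 11.5% and 11.1%. In dko minus mdx 0 of these 22 were called without the block, and with it 2 were higher in leg, where 1.2% of all probe sets were called in either direction.

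A promoter window was found for 50 of the 61 member genes, 59 windows in all, and was set against 32851 windows of 27025 genes in the same RefSeq table. The antioxidant response element core (TGACNNNGC) was in 8 of 50 member genes (16%, against 14% of all genes) and CCAAT in 19 (38%, against 41.1%). The interferon-stimulated core (GAAANNGAAA) was in 4 (8%, against 3.99%), namely Psmb3, Psmd4, Psmd9 and Psme1, the gamma-activated site (TTCNNNGAA) in 3 (6%, against 9.55%) and TATAAA in 5 (10%, against 15.7%). Both strands were searched, and no matches of different motifs overlapped in the member windows. Of the members with the interferon-stimulated core, Psme1 was called higher in heart and Psmb3 was called lower in dko heart. CCAAT was most frequent in the Psma genes, in 5 of 7.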

How the data were processed

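The deposited values are array intensity on a linear scale, 1 value per probe set, which the authors had put on a common scale (the values show near-equal means once 2% is trimmed at either end); per the labels a standard Affymetrix protocol was used, and the software and detection calls are not given in the sources used here. Symbols came from the platform annotation. Of 12488 probe sets, 66 controls were left out, and those above the 40th percentile in at least 3 of 18 arrays were tested. All 18 columns belonged to these samples. An offset of 166.7 was added before log2, so folds of dim probe sets are understated.

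In R 4.3.3, limma 3.58.1 fitted 6 group means (12 residual and 3.52 prior degrees of freedom), two-sided, and adjusted by Benjamini and Hochberg over 8888 probe sets per contrast; each adjusted p in the text is from limma unless a permutation is named. The fit was tested on simulated data. Because numbers pair the arrays by their correlations, the number was also a block, within tissue for genotypes (6 and 3.79 degrees of freedom) and common to all arrays for tissues (10 and 4.04). Exact permutations swapped genotypes within tissues or within pairs. Probe sets of 1 gene were kept apart. Those ending in f_at, g_at, i_at, r_at or s_at may measure their gene less specifically or less reliably, and some can pick up related transcripts. The genes named were the 3 highest and 3 lowest members in each genotype comparison, up to 6 called members in each direction between mdx tissues with their dko values, the member with the smallest adjusted p per family, genes with textbook roles, and genes whose tested probe sets differed in sign with at least 1 called; the other members and the list genes were named after their values were seen. The members and lists were chosen with earlier results of these data known. Promoters were RefSeq windows on GRCm38.p6. Figures were drawn with matplotlib 3.10.9. Alternatives were other offsets, no filter, 2 scalings, fewer groups, the block and leaving out arrays.
The number of arrays limits the precision.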

Additional observations from a re-analysis of the deposited data

How the results depend on the processing

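The 6 counts of members called between tissues moved most. In the order mdx extraocular minus leg, heart minus leg and extraocular minus heart, then the same in dko, they were 15, 25, 9, 11, 29 and 10 with the replicate block, and 0, 5, 1, 0, 3 and 2 with only the 2 groups compared. With 2 times the offset the dko extraocular minus leg count was 2, and without the 6 arrays numbered 3, chosen after seeing the data, it was 0 and the mdx heart minus leg count was 8. Leaving out 1 array, the counts ranged from 1 to 3, 6 to 12 and 1 to 3 in mdx and were 1, 4 to 9 and 2 to 3 in dko. All genotype counts and both interaction counts were 0 throughout, also with the block, and members at an unadjusted p under 0.05 in limma were then 4, 4 and 8 in extraocular muscle, heart and leg, where all 8888 probe sets held 717, 494 and 1585.

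The median member difference, mdx heart minus leg, was -0.30 with 0.5 of the offset, -0.27 with 2 times the offset, -0.27 with no filter, -0.31 with 75th percentile scaling and -0.28 without the arrays numbered 3. In dko it was -0.14 with no filter and -0.26 without those arrays. With no filter the mean genotype median was -0.034 and the mdx extraocular minus heart median 0.0097. Leaving out 1 array, the medians ranged as follows. In mdx they were -0.29 to -0.15 for extraocular minus leg, -0.39 to -0.22 for heart minus leg and 0.0013 to 0.12 for extraocular minus heart. In dko they were -0.29 to -0.18, -0.30 to -0.12 and 0.0052 to 0.098. For dko minus mdx they were -0.072 to 0.050 in extraocular muscle, -0.071 to 0.054 in heart, -0.092 to 0.00048 in leg and -0.062 to -0.0012 in the mean, and -0.037 to 0.096 and 0.03 to 0.15 for the interactions of extraocular muscle and heart with leg.

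Among named members, 567 values kept direction and side of the threshold, 40 lost the call and 5 turned sign. Those were, in dko minus mdx, Ube2l6 in extraocular muscle without dko replicate 2 (-0.0065, and up to 0.66 without another array), Psmb5 160559_at in heart without mdx replicate 3 (-0.062, up to 0.86), Psmd5 in leg without dko replicate 2 (-0.020, up to 0.45), and, without the arrays numbered 3, Ube2z 160454_at in leg (-0.0057) and Ube2l6 in heart (0.013). None had been called, and the cause was not tested. Values near or below the offset limit the folds of dim probe sets.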
